A study of Danio rerio with 28 samples.

Results

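Hepatocytes and biliary epithelial cells (BECs) of the adult zebrafish liver were compared with each other 3 days after hepatocyte ablation (3 dpa). The cells were taken from the 3 Drop-Seq libraries labelled 3 dpa, a droplet method that counts RNA molecules by their unique molecular identifiers (UMIs). A barcode was called a cell where its UMI total exceeded the mean of its library. A called cell was a hepatocyte where apoa1b, apoa2, fabp10a and tfa together held at least 3% of its UMIs. It was a BEC where these 4 genes held under 2%, and anxa4, lgals2b, epcam, tm4sf4 and cdh1 together reached at least 3 UMIs and at least 0.4%. The rule found 2236 cells, 2096 hepatocytes and 140 BECs, among 2548 called cells at 3 dpa and 25842 called cells in all 28 libraries. Cells were thus chosen by the measured shares of these 9 genes, whose levels are given as a description with no test.

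The study followed liver regeneration from before ablation to its end. Cells of 3 dpa and 7 dpa came from adults with the Cre driver Tg(Tp1:CreERT2), the reporter Tg(-3.5ubb:LOXP-EGFP-LOXP-mCherry) and the ablation line Tg(fabp10a:CFP-NTR) and were sorted as mCherry+ cells, and uninjured livers of the TU line, which carries none of these transgenes, gave all cells with no sort for mCherry. The Cre recombinase is driven by a Notch-responsive element that is active in BECs of the liver and works after 4-hydroxytamoxifen, the ubiquitous reporter then changes from GFP to mCherry, and nitroreductase (NTR) made under the hepatocyte promoter fabp10a turns metronidazole into a toxin that kills hepatocytes. An mCherry+ hepatocyte is thus a cell whose lineage once had Notch activity, as far as recombination was confined to BECs.

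Hepatocytes make most proteins of the blood plasma, break down amino acids and purines, make glucose and bile acids, and detoxify foreign compounds. BECs line the bile ducts as a polarized epithelium sealed by claudins, and they adjust bile by moving water, bicarbonate and chloride. Notch signalling drives liver progenitors towards the biliary fate during development, through Hes family repressors, which are called her genes in zebrafish, and Sox9. In zebrafish larvae that lose nearly all hepatocytes, BECs are known to give rise to new ones.

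Libraries 1, 2 and 3 gave 717, 671 and 708 hepatocytes, against 40, 37 and 63 BECs. Hepatocytes were 82.9%, 81.3% and 82.5% of called cells, against 4.62%, 4.48% and 7.34% for BECs. The exact 95% binomial intervals of the hepatocyte share ran from 78.5% to 85.3% over the libraries, against 3.18% to 9.30% for the BEC share, and cover counting error only. The summed hepatocytes held 4800204, 3949115 and 4586909 UMIs, against 112044, 102802 and 193736 UMIs in the summed BECs, so BEC levels were the less precise. A hepatocyte had a median of 5179, 4440 and 4915 UMIs, against 2155, 2373 and 2379 UMIs for a BEC. The calling threshold lay between 1158 and 1379 UMIs.

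The hepatocyte share of the rule differed widely between the types, as the rule required. Its median was 8.01%, 8.06% and 8.03% of UMIs in hepatocytes, against 1.19%, 1.18% and 1.16% in BECs. The biliary genes did not separate the types as far, since the rule set no upper limit on them in hepatocytes. Their median share was 0.492%, 0.498% and 0.506% in hepatocytes, against 1.53%, 1.37% and 1.47% in BECs. Of the hepatocytes, 65.1%, 66.6% and 65.5% also met the biliary criterion, whereas 0% to 0.875% of hepatocytes did so in the 7 dpa libraries. Barcodes that were not called, which serve here as a measure of free RNA, had 0.459% to 0.463% of biliary genes at 3 dpa and 0.0691% to 0.0709% at 7 dpa. At 3 dpa they also had 7.15% to 7.41% of the 4 hepatocyte genes. Hepatocyte sums had 8.53% to 8.69% and BEC sums 1.07% to 1.19%. A hepatocyte level near that of barcodes not called thus does not tell free RNA from expression.

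**Figure D1:**
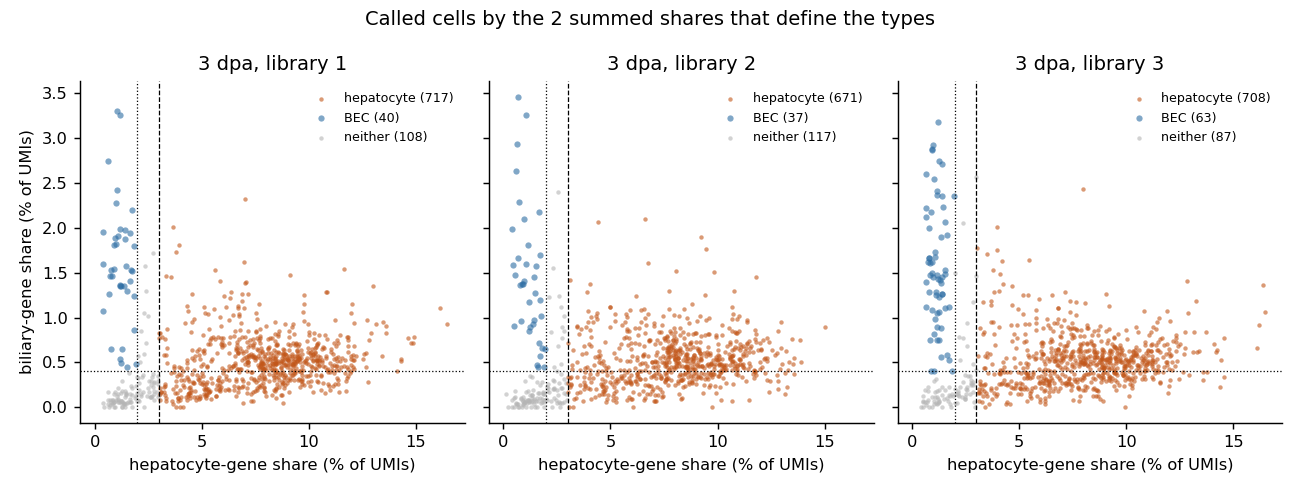
Each point is a called cell of 1 of the 3 libraries at 3 dpa, with the summed share of the 4 hepatocyte genes on the x axis and of the 5 biliary genes on the y axis, both as % of its UMIs. Orange points are hepatocytes, blue points BECs and grey points cells of neither type. Dashed and dotted lines mark 3% and 2% on the x axis and 0.4% on the y axis, and the hepatocytes form one cloud with a median of 8.01% to 8.06% that reaches down to the threshold.

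Cells near the thresholds were few beside the hepatocytes but not beside the BECs. In libraries 1, 2 and 3, 45, 47 and 43 called cells lay between 2% and 3% and belonged to neither type, and 28, 22 and 41 of the BECs had at least 1% of hepatocyte genes. The lowest hepatocytes had 3.01%, 3.03% and 3.03% of hepatocyte genes, and the highest cells below the threshold had 2.99%, 2.96% and 2.99%. The highest BECs had 1.95%, 1.96% and 1.96%. Libraries shared 15 to 28 barcodes by pair, of which 1 or 2 were typed cells. No doublet caller was run, and leaving out the 5% of cells with the most UMIs stood in for one.

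When each gene of the rule was left out of the rule in turn, its level could be read in cells that it had not chosen. By this reading apoa1b, the main apolipoprotein of high-density lipoprotein, was at 11776, 11765 and 11951 UMIs per 1000000 UMIs of the sum (CPM) in hepatocytes, against 895, 982 and 995 CPM in BECs. The transferrin gene tfa was much closer, at 31020, 31209 and 31568 CPM in hepatocytes, against 24017, 20621 and 15389 CPM in BECs, where leaving it out let cells rich in tfa pass as BECs. Of the biliary genes, the calcium-binding annexin anxa4 was at 1578, 1571 and 1586 CPM in hepatocytes, against 6917, 7025 and 7511 CPM in BECs. The galectin lgals2b was the least separated, with 3354, 3362 and 3395 CPM in hepatocytes, against 5502, 5243 and 5480 CPM in BECs. The libraries did not overlap between the types for these 4 genes, which was also so for 22.3% of all genes tested below with hepatocytes higher and for 24.5% with hepatocytes lower.

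Other hepatocyte and biliary markers fitted the labels in most cases. Of 9 tested hepatocyte markers outside the rule, 8 were higher in hepatocytes and 1, ttr, was lower. Of 10 biliary markers outside the rule 7 were tested, of which 5 were lower in hepatocytes and none was called higher, with the same counts under all 4 scalings described below. The 2 not called were krt18a.1 and cldn15la. The latter averaged 57.3 CPM in hepatocytes and 41.7 CPM in BECs (log2 change 0.88, edgeR adjusted p = 0.064). Markers of endothelial cells, stellate cells, fibroblasts, lymphocytes and neutrophils held under 0.002% of the UMIs of either type. Macrophage markers held 0.00430% to 0.00542% in hepatocytes and 0.00803% to 0.00973% in BECs, below the 0.0490% to 0.0510% of the barcodes not called. Markers of red blood cells, thrombocytes, pancreas and neurons held at most 0.00486% in either type.

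For each gene, the UMIs of each type were summed per library, and hepatocytes were compared with BECs within libraries. Among 7523 genes tested, 2169 (28.8%) were called at an adjusted p under 0.05 by the quasi-likelihood test of edgeR, adjusted over all genes as Benjamini and Hochberg describe, 1378 (18.3%) higher and 791 (10.5%) lower in hepatocytes. The split depended on scaling, for which trimmed-mean (TMM) factors were 0.871 to 0.879 for hepatocyte sums and 1.05 to 1.2 for BEC sums. With totals alone, 802 were higher and 1089 lower, and the median of all genes moved by -0.37 on the log2 scale. Under all 4 scalings tried, 728 genes (9.68%) were called higher and 572 (7.6%) lower in hepatocytes, and counts of genes called under all scalings are given beside those under TMM. Without library 3, which had the most BECs, 909 genes were called.

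These tests have a limit that belongs to the rule. Any gene that varied from cell to cell along with the 9 genes was sorted with them, so the p-values measure how steadily the 2 sums differed between libraries. The labels do not say that libraries came from separate fish, and replicates differed by 1.52 to 2.14 times counting noise in a chi-square per degree of freedom, so the spread may be technical. Fewer or more transcripts in a gene's sum cannot be told apart from fewer or more cells that express it. A gene could pass the filter on low counts through one type alone, so counts over lists are descriptions. They are to be read beside the 18.3% of all genes called higher and 10.5% called lower in hepatocytes (9.68% and 7.6% under all scalings). List medians are on the log2 scale of hepatocytes over BECs and count a gene with no BEC UMI at the smallest fold that 3 UMIs over the group would allow, and the median of all tested genes on that scale was 0.21.

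**Figure D2:**
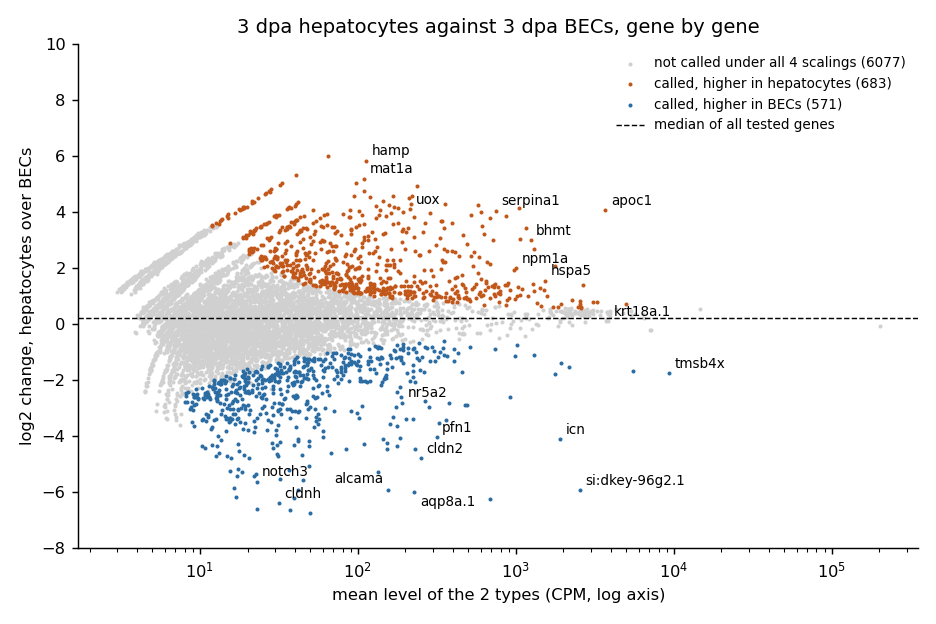
Each point is a gene with UMIs in both types, with the mean CPM of the types on a log x axis and the log2 change of hepatocytes over BECs on the y axis, from 3 libraries. Colours mark genes called under all 4 scalings and the dashed line is the median of all tested genes. Genes of hepatocyte function such as mat1a (5.19) lie far above it, and aqp8a.1 (-6.00), alcama (-5.92) and si:dkey-96g2.1 (-5.93) lie far below.

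Apolipoproteins and other lipid transport genes were higher in hepatocytes for 12 of 14 tested members, and none was lower, with a median of 2.54 (11 under all scalings). They held 1.05% to 1.1% of hepatocyte UMIs, against 0.0817% to 0.101% of BEC UMIs. The apolipoprotein apoc1 was at 7032, 6502 and 7029 CPM in hepatocytes, against 536, 418 and 630 CPM in BECs, a log2 change of 4.05 (SE 0.14, edgeR adjusted p = 4.0e-170). With the background of barcodes not called subtracted it was 8.24. That subtraction takes the same UMI count from each cell, and so the larger share from BECs, which had fewer UMIs. The value of 8.24 is thus no measure of a larger contrast. The apolipoprotein apoeb was at 1136, 1076 and 1012 CPM in hepatocytes, against 71.4, 87.5 and 61.9 CPM in BECs. The libraries of the types were far apart for both genes, and BECs were also far below the 5832 CPM of apoc1 in barcodes not called.

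Clotting and complement factors followed the same direction. Of 20 tested coagulation genes 17 were higher in hepatocytes and 2 lower, with a median of 2.89 (14 and 2 under all scalings). The fibrinogen chain fgb was at 2163, 1935 and 2138 CPM in hepatocytes, against 303, 165 and 274 CPM in BECs, a log2 change of 3.43 (SE 0.16, edgeR adjusted p = 4.2e-100). Both genes that were lower, f3a and f3b, encode tissue factor, the cell surface trigger of clotting, which is not a plasma protein. For f3a the levels were 10, 10.4 and 13.7 CPM in hepatocytes, against 89.3, 48.6 and 56.8 CPM in BECs. Complement genes were higher in hepatocytes for 18 of 20 tested, with a median of 2.89 (16 under all scalings), and none was lower. The complement inhibitor cfh was at 1104, 1044 and 1166 CPM in hepatocytes, against 134, 68.1 and 160 CPM in BECs.

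Plasma carriers and inhibitors were higher in hepatocytes for 21 of 23 tested members (15 under all scalings), with a median of 2.41. The protease inhibitor serpina1 was at 1365, 1393 and 1422 CPM in hepatocytes, against 89.3, 107 and 124 CPM in BECs (log2 change 4.04, SE 0.19). The iron hormone hepcidin, hamp, was at 226, 241 and 200 CPM in hepatocytes, against 0, 0 and 10.3 CPM in BECs, where it rested on 2 UMIs. The 1 member that was lower in hepatocytes was ttr, which carries thyroid hormone and retinol-binding protein. It was at 78.7, 81.5 and 75.0 CPM in hepatocytes, against 134, 224 and 176 CPM in BECs, with a log2 change of -0.80 (SE 0.24, edgeR adjusted p = 4.1e-03). Its call did not hold without library 2 (-0.60, adjusted p = 0.13) or library 3 (-0.68, adjusted p = 0.20). It was also lost with BECs under 1% of hepatocyte genes (-0.31, adjusted p = 0.66), hepatocytes at 10% or more (-0.46, adjusted p = 0.13), no filter on low counts (-0.43, adjusted p = 0.45) and one fit with the other groups (-0.80, adjusted p = 0.14).

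**Figure D3:**
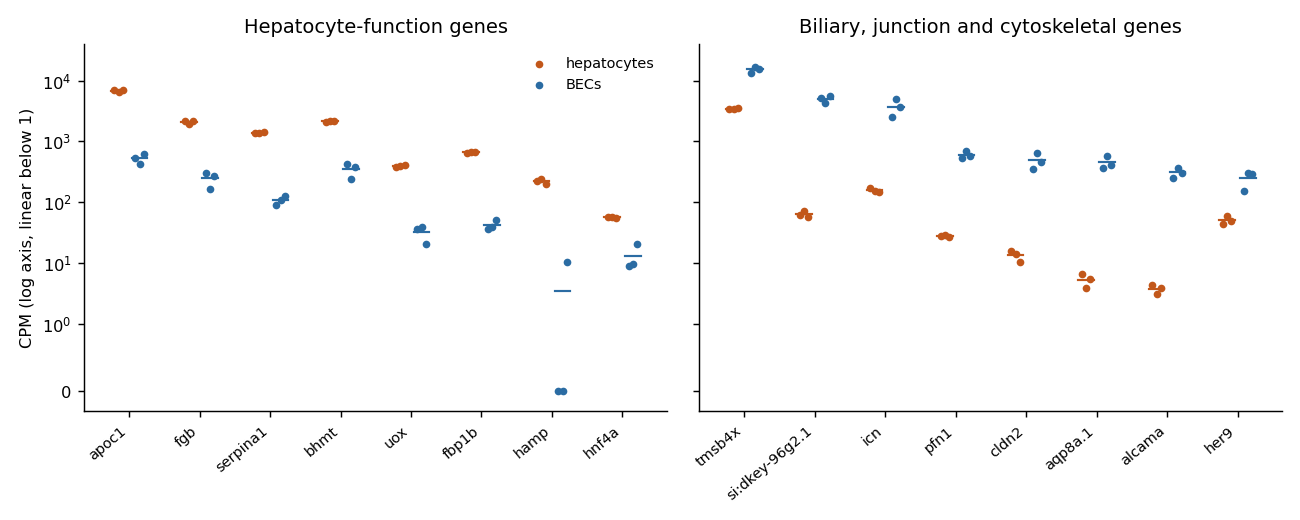
Points are the 3 libraries at 3 dpa and short lines their means, with CPM on a log y axis that is linear below 1, hepatocytes in orange and BECs in blue. The left panel shows genes of hepatocyte function, with hamp reaching 0 in 2 BEC sums, and the right panel genes of bile duct, junction and cytoskeleton. No gene shown, each picked for display, has libraries of the 2 types that overlap. Of all genes tested this was so for 22.3% with hepatocytes higher and 24.5% with hepatocytes lower.

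Amino acid and purine catabolism was higher in hepatocytes for 35 of 39 tested genes and lower for none, with a median of 2.99 (32 under all scalings). The enzyme mat1a, which makes S-adenosylmethionine in the liver, was at 230, 205 and 200 CPM in hepatocytes, against 8.93, 9.73 and 5.16 CPM in BECs (log2 change 5.19, SE 0.44). The urate oxidase uox was at 377, 399 and 411 CPM in hepatocytes, against 35.7, 38.9 and 20.6 CPM in BECs. Homocysteine methyltransferase bhmt was more abundant in BECs than these enzymes relative to hepatocytes, at 2079, 2166 and 2181 CPM in hepatocytes, against 419, 243 and 372 CPM in BECs (log2 change 2.99, SE 0.15). The aminotransferase agxtb, which clears glyoxylate, was 3.99 log2 units higher in hepatocytes (SE 0.20). Each of these 4 enzymes was higher in every hepatocyte sum than in every BEC sum, as were 22.3% of all genes tested.

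Genes of glucose production were higher in hepatocytes for 10 of 13 tested and lower for none, with a median of 2.46 (8 under all scalings). Fructose bisphosphatase fbp1b was at 652, 675 and 676 CPM in hepatocytes, against 35.7, 38.9 and 51.6 CPM in BECs (log2 change 4.29, SE 0.24). The first committed enzyme of the pathway, pck1, was at 361, 355 and 344 CPM in hepatocytes, against 44.6, 58.4 and 41.3 CPM in BECs. Glycolytic enzymes divided by isozyme, with 9 of 17 tested genes higher and 2 lower in hepatocytes, all of them under all scalings. The enzyme gapdh was higher in hepatocytes (2.67, SE 0.14), at 2194, 2213 and 2116 CPM in hepatocytes, against 437, 506 and 397 CPM in BECs. The pyruvate kinase pkma (-3.80, SE 0.44) and gapdhs (-1.29, SE 0.21) were lower, with pkma at 6.25, 7.34 and 5.45 CPM in hepatocytes, against 98.2, 126 and 119 CPM in BECs.

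Lipid oxidation was higher in hepatocytes for 19 of 25 tested genes and lower for none, with a median of 1.49 (15 under all scalings). Cholesterol and fatty acid synthesis had 11 of 26 genes higher and 1 lower in hepatocytes (7 and 1 under all scalings). Bile acid synthesis and transport had 7 of 12 higher and none lower, with a median of 1.49 (5 under all scalings). Of this list scp2a, a peroxisomal thiolase and sterol carrier, was at 600, 621 and 613 CPM in hepatocytes, against 35.7, 77.8 and 67.1 CPM in BECs. The sterol hydroxylase cyp8b1, which sets the kind of bile acid made, had 633 UMIs in hepatocytes and 0 in BECs, at least 6.46-fold higher in hepatocytes where 3 UMIs over all BECs are taken as the limit.

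Enzymes for foreign compounds were less uniform, with 16 of 36 tested genes higher in hepatocytes, 1 lower and 19 not called, and a median of 1.4 (12 higher and 1 lower under all scalings). The cytochrome P450 gene cyp2ad2 was at 175, 181 and 173 CPM in hepatocytes, against 0 in each BEC sum. Its 2348 UMIs against 0 set a fold of at least 24.0.

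Transcription factors that are linked to hepatocytes did not move as a block. Of 29 tested members, 6 were higher and 5 lower in hepatocytes, with a median of 0.14, close to that of all genes (5 and 4 under all scalings). Among all genes tested 18.3% were called higher and 10.5% lower. The factor cebpa, which maintains hepatocyte metabolism, was at 84.8, 86.9 and 73.3 CPM in hepatocytes, against 0 in every BEC sum, at least 11.1-fold higher. The nuclear receptor hnf4a, a main regulator of hepatocyte identity, was at 57.3, 56.2 and 54.3 CPM in hepatocytes, against 8.93, 9.73 and 20.6 CPM in BECs (log2 change 2.29, SE 0.50, edgeR adjusted p = 4.1e-05). On 6 UMIs in all BECs, its level there was poorly fixed.

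Other members of that list were higher in BECs. The nuclear receptor nr5a2, known for bile acid regulation and for roles in ductal and pancreatic cells, was at 37.9, 34.2 and 41.2 CPM in hepatocytes, against 330, 321 and 382 CPM in BECs (log2 change -2.81, SE 0.22, edgeR adjusted p = 7.7e-35). The factor onecut1, which acts in bile duct formation in mice, was at 16.7, 15.7 and 11.6 CPM in hepatocytes, against 62.5, 146 and 103 CPM in BECs. No library of one type reached the range of the other for either gene, which was so with hepatocytes lower for 24.5% of all genes tested.

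The list of biliary transcription factors, which shares onecut1, had 2 members higher and 6 lower in hepatocytes among 17 tested, with a median of -1.0 (2 and 5 under all scalings). Among all genes tested 18.3% were called higher and 10.5% lower. The biliary factor sox9b was at 1.67, 0.760 and 0.436 CPM in hepatocytes, against 8.93, 29.2 and 36.1 CPM in BECs. Its log2 change of -4.36 (SE 0.55) rested on 13 UMIs in hepatocytes and 11 in BECs, and without library 3 it was -3.38 with an adjusted p of 0.051. The epithelial factor elf3 was at 62.1, 43.6 and 49.3 CPM in hepatocytes, against 170, 224 and 212 CPM in BECs (log2 change -1.61, SE 0.24). The inhibitor of differentiation id2a was lower in hepatocytes by a similar amount (-1.60, SE 0.23).

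Notch pathway genes were lower in hepatocytes for 10 of 15 tested members and higher for none, with a median of -2.0 (7 under all scalings). The receptor notch3 was at 1.04, 0.506 and 0.436 CPM in hepatocytes, against 44.6, 38.9 and 51.6 CPM in BECs, a log2 change of -5.63 (SE 0.50, edgeR adjusted p = 1.4e-19). The repressors her9, her15.1 and her15.2 were lower as well. The gene her9 was at 44.2, 59.5 and 49.7 CPM in hepatocytes, against 152, 302 and 289 CPM in BECs (log2 change -1.91, SE 0.23). The repressor her15.1 was at 1.04, 1.01 and 1.53 CPM in hepatocytes, against 35.7, 38.9 and 25.8 CPM in BECs, and her15.2 at 2.5, 3.04 and 2.83 CPM in hepatocytes, against 62.5, 58.4 and 51.6 CPM in BECs. These 2 copies are nearly identical in sequence, so reads may have been split between them. The ligand jag1b did not pass the test, at 23.5, 18.7 and 21.4 CPM in hepatocytes, against 26.8, 68.1 and 25.8 CPM in BECs.

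Of 39 tested junction and polarity genes, 25 were lower in hepatocytes and none was higher, with a median of -1.63 (22 under all scalings). The list held 0.0980% to 0.101% of hepatocyte UMIs, against 0.487% to 0.524% of BEC UMIs. The claudin cldn2, which forms pores for cations and water in tight junctions, was at 15.8, 14.2 and 10.5 CPM in hepatocytes, against 357, 652 and 459 CPM in BECs (log2 change -4.79, SE 0.23, edgeR adjusted p = 5.9e-91). The claudin cldn15lb was at 205, 206 and 202 CPM in hepatocytes, against 1705, 1547 and 1626 CPM in BECs. The claudin cldnh had 7 UMIs in all hepatocytes and 26 in the far smaller BEC sums (log2 change -6.40, SE 0.49).

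Adhesion molecules ranged from nearly absent to shared. The adhesion molecule alcama, long used to mark zebrafish bile ducts, was at 4.37, 3.04 and 3.92 CPM in hepatocytes, against 250, 370 and 305 CPM in BECs (log2 change -5.92, SE 0.35, edgeR adjusted p = 1.0e-62). Hepatocytes were thus below the 16.2 CPM of the barcodes not called. The connexin cx30.3, a gap junction channel, was at 5.62, 4.81 and 5.01 CPM in hepatocytes, against 214, 272 and 299 CPM in BECs. The cadherin cdh17 differed far less, at 102, 103 and 92.0 CPM in hepatocytes, against 232, 224 and 284 CPM in BECs (log2 change -0.97, SE 0.21), and lost its call without library 3 (-0.69, adjusted p = 0.10), with BECs under 1% of hepatocyte genes (-0.66, adjusted p = 0.15) and with no filter on low counts (-0.60, adjusted p = 0.054). In barcodes not called cdh17 was at 84.6 CPM, close to hepatocytes. When the hepatocytes that met the biliary criterion were left out, 19 of 25 tested junction genes were lower in hepatocytes and none was higher. This step removed cells by the biliary genes of the rule, so it is no separate test of genes that vary with them.

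Genes of the actin cytoskeleton were lower in hepatocytes for 26 of 41 tested members and higher for 2, with a median of -1.10 (23 and 0 under all scalings). Profilin pfn1, which feeds actin monomers to growing filaments, was at 27.9, 28.4 and 27 CPM in hepatocytes, against 527, 700 and 578 CPM in BECs (log2 change -4.05, SE 0.20, edgeR adjusted p = 8.7e-88). The tropomyosin tpm4a was at 48.1, 31.9 and 43.4 CPM in hepatocytes, against 598, 661 and 583 CPM in BECs. The actin gene actb2 differed less, at 905, 864 and 836 CPM in hepatocytes, against 2856, 3444 and 2720 CPM in BECs. All 3 genes were lower in every hepatocyte sum than in every BEC sum, as were 24.5% of all genes tested. When the hepatocytes that met the biliary criterion were left out, 26 of 36 tested actin genes were lower and 1 was higher. Again the biliary genes of the rule chose the cells left, so this is no separate test.

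Annexins, S100 proteins, galectins and thymosins were lower in hepatocytes for 10 of 16 tested members and higher for 1, with a median of -1.84 (10 and 0 under all scalings). The 1 that was higher was s100a10a (log2 change 1.07, SE 0.28, edgeR adjusted p = 8.2e-04), at 151, 91.2 and 130 CPM in hepatocytes, against 143, 77.8 and 36.1 CPM in BECs, where the libraries of the types overlapped. They held 0.433% to 0.445% of hepatocyte UMIs, against 1.81% to 2.45% of BEC UMIs. The thymosin tmsb4x, which binds free actin, was at 3422, 3431 and 3493 CPM in hepatocytes, against 13191, 16926 and 15660 CPM in BECs (log2 change -1.75, SE 0.12). Ictacalcin, icn, an S100 protein of fish epithelia, was at 172, 155 and 149 CPM in hepatocytes, against 2499, 4893 and 3618 CPM in BECs (log2 change -4.11, SE 0.13, edgeR adjusted p = 1.1e-210). The annexin anxa2b had 29 UMIs in all hepatocytes and 37 in the BECs (log2 change -5.06, SE 0.46). Hepatocyte levels of icn were below the 256 CPM of barcodes not called, and those of tmsb4x were slightly above 3206 CPM.

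Channels and carriers for water and ions divided by gene, with 3 of 15 tested higher and 8 lower in hepatocytes (1 and 4 under all scalings). The water channel aqp8a.1 was at 6.46, 3.8 and 5.45 CPM in hepatocytes, against 366, 574 and 413 CPM in BECs (log2 change -6.00, SE 0.27, edgeR adjusted p = 8.3e-106). Another water channel, aqp12, was the 1 member higher under all scalings, at 338, 348 and 336 CPM in hepatocytes, against 26.8, 48.6 and 51.6 CPM in BECs. The bicarbonate carrier slc4a4b was lower in hepatocytes (-3.78, SE 0.50).

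Of 8 tested genes of the keratin list 1 was higher and 4 were lower in hepatocytes (0 and 2 under all scalings). Keratins of simple epithelia were abundant in both types. The type I keratin krt18a.1 was at 3470, 3467 and 3494 CPM in hepatocytes, against 4454, 4251 and 4016 CPM in BECs, and krt8 at 738, 789 and 721 CPM in hepatocytes, against 964, 1158 and 1115 CPM in BECs. Neither passed the test (0.10 with adjusted p = 0.58 and -0.15 with adjusted p = 0.43), although CPM was lower in every hepatocyte sum, because the scaling factors offset a gap of this size. Both results depended on the setting. For krt8 the change was called lower under 6 alternatives (-0.37 to -0.77), among them totals alone (-0.53, adjusted p = 3.3e-05). For krt18a.1 it was called lower under the same 6 (-0.22 to -0.56), among them totals alone (-0.28, adjusted p = 1.7e-03), but higher with no filter on low counts (0.47, adjusted p = 2.7e-04). The keratins krt4 (-4.80, SE 0.52) and krt94 (-5.21, SE 0.46) were the 2 that were lower in hepatocytes under all scalings.

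**Figure D4:**
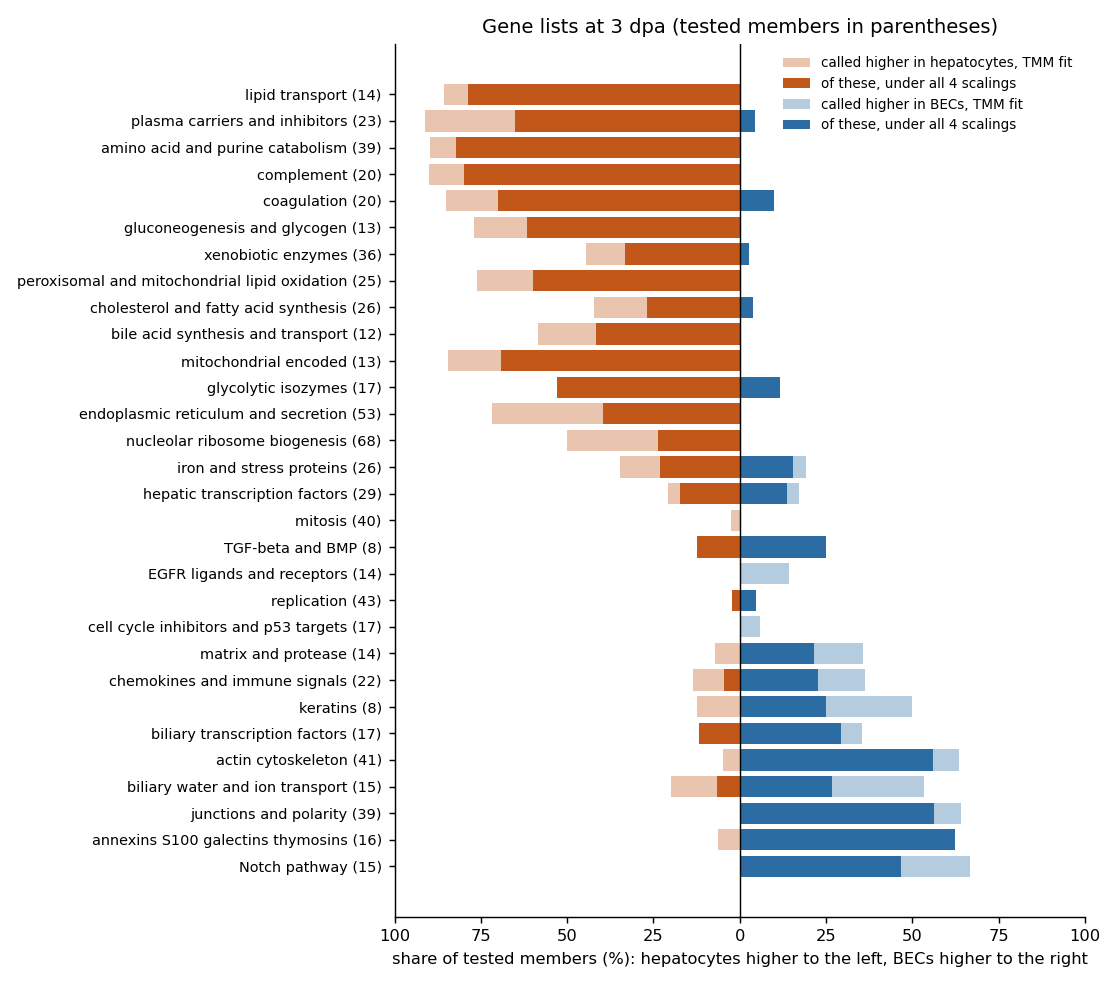
For each gene list, bars give the share of tested members called higher in hepatocytes (left, orange) and in BECs (right, blue), pale for TMM scaling and full for all 4 scalings, with the number tested in parentheses. Lists are ordered by the median of their fitted changes. Secreted and metabolic lists fill the left side and junction, annexin, Notch and actin lists the right, while replication and mitosis are close to empty on both.

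Few proliferation genes were called between the types. Of 43 tested replication genes 1 was higher and 2 lower in hepatocytes, with a median of -0.06 (1 and 2 under all scalings), and of 40 mitosis genes 1 was higher, with a median of 0.04 (0 under all scalings). That 1 mitosis gene was mki67, at 152, 143 and 152 CPM in hepatocytes, against 89.3, 48.6 and 134 CPM in BECs (log2 change 0.99, SE 0.25), and it was not called with totals alone (0.62, adjusted p = 0.063), hepatocytes at 10% or more (0.22, adjusted p = 0.57), sums thinned to one total (0.23, adjusted p = 0.61) or cells at the depth of BECs (0.62, adjusted p = 0.24). One of the 2 lower replication genes was geminin, gmnn, which blocks repeated licensing of replication origins, at 51.7, 39.5 and 36.6 CPM in hepatocytes, against 259, 360 and 372 CPM in BECs (log2 change -2.61, SE 0.22, edgeR adjusted p = 2.6e-30). Cell cycle inhibitors and p53 targets had 1 of 17 called, lower in hepatocytes, and none under all scalings. The replication list held 0.147% to 0.156% of hepatocyte UMIs, against 0.199% to 0.251% of BEC UMIs. For the mitosis list the shares were 0.0873% to 0.0900% in hepatocytes, against 0.0749% to 0.129% in BECs. With BEC sums this small, few calls do not show equal levels in the types.

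Genes for making ribosomes and secreted proteins were higher in hepatocytes. Of 68 nucleolar genes 34 were higher and none lower, with a median of 0.86 (16 under all scalings). The nucleolar chaperone npm1a was at 1481, 1543 and 1520 CPM in hepatocytes, against 634, 350 and 490 CPM in BECs (log2 change 2.0, SE 0.14), and fibrillarin, fbl, was 1.55 higher (SE 0.22). Of 53 genes of the endoplasmic reticulum 38 were higher and none lower, with a median of 1.03 (21 under all scalings). The chaperone hspa5 was at 2143, 2056 and 2143 CPM in hepatocytes, against 1044, 837 and 950 CPM in BECs, and the translocon subunit sec61b was 1.97 log2 units higher (SE 0.19).

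Transcripts of the mitochondrial genome were higher in hepatocytes for 11 of 13 tested genes (9 under all scalings), with a median of 1.15. The ATP synthase subunit mt-atp6 was at 3731, 3445 and 3449 CPM in hepatocytes, against 1821, 2004 and 1523 CPM in BECs (log2 change 1.38, SE 0.12). Reads on the mitochondrial genome that the tables keep as one feature, apart from these genes, held 17.2%, 17.0% and 16.8% of hepatocyte UMIs, against 24.3%, 23.2% and 23.2% of BEC UMIs and a mean of 26.1% in barcodes not called. That feature did not pass the test under TMM scaling (log2 change -0.08, adjusted p = 0.72), and its part in other differences was not tested.

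Immune and stress genes gave a mixed picture, beside 18.3% of all genes tested called higher and 10.5% called lower in hepatocytes. Of 22 tested chemokine and immune genes, 3 were higher and 8 lower in hepatocytes (1 and 5 under all scalings). The chemokine ccl20a.3 had 9 UMIs in all hepatocytes and 42 in BECs, at 178, 9.73 and 108 CPM in the BEC sums, a wide spread, against 0.417, 1.52 and 0.218 CPM in hepatocyte sums. Heme oxygenase hmox1a was at 5.42, 9.88 and 8.50 CPM in hepatocytes, against 71.4, 117 and 129 CPM in BECs (log2 change -3.38, SE 0.43). The ferritin fthl27, which stores iron, was at 884, 901 and 893 CPM in hepatocytes, against 3070, 4017 and 3211 CPM in BECs. Both belong to the list of iron and stress proteins, where 9 of 26 tested genes were higher and 5 lower in hepatocytes (6 and 4 under all scalings).

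Signalling lists had few tested members. Of all genes tested, 18.3% were called higher and 10.5% lower in hepatocytes (9.68% and 7.6% under all scalings). EGFR ligands and receptors had 2 of 14 lower in hepatocytes and none under all scalings. Of 8 tested TGF-beta and BMP genes 1 was higher and 2 lower (1 and 2 under all scalings), among them smad3a, which carries the TGF-beta signal, at 6.25, 7.6 and 4.14 CPM in hepatocytes, against 125, 97.3 and 77.4 CPM in BECs (log2 change -3.69, SE 0.47). Matrix and protease genes had 1 of 14 higher and 5 lower (0 and 3 under all scalings). Outside that list the collagen chaperone serpinh1b was at 6.87, 13.4 and 6.32 CPM in hepatocytes, against 232, 136 and 258 CPM in BECs (log2 change -4.27, SE 0.35).

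Among the 15 largest rises in hepatocytes by fitted change with at least 50 CPM in the higher type were hamp, mat1a, shbg, acsbg1, rbp2a, fads2, ces2a and gpd1b, beside cyp2ad2 and cebpa. Their fitted log2 changes, apart from those of cyp2ad2 and cebpa, lay between 4.59 and 5.83, and each rested on at most 9 UMIs in BECs. The 15 largest falls included genes with no descriptive name. The gene si:dkey-96g2.1 was at 60.8, 70.9 and 57.3 CPM in hepatocytes, against 5248, 4241 and 5502 CPM in BECs (log2 change -5.93, SE 0.14). Another, zgc:193726, was at 14.4, 10.4 and 15.7 CPM in hepatocytes, against 1098, 1527 and 1476 CPM in BECs. The hepatocyte libraries of both genes lay far below the BEC libraries. The gene cuzd1.2 had 0 UMIs in hepatocytes and 29 in BECs, at least 316-fold higher in BECs.

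The 30 genes named by that rule were called, in the same direction, under every alternative in which they were tested. They were chosen for large changes in these same libraries, so this is no separate support. Some were not tested under each alternative, such as krt94 and ccl20a.3 without the hepatocytes that met the biliary criterion.

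The transgenes were present in both types. The lineage reporter mCherry was at 101, 120 and 109 CPM in hepatocytes, against 232, 282 and 268 CPM in BECs (log2 change -0.88, SE 0.21, edgeR adjusted p = 1.7e-04), and it lost its call without library 3 (-0.75, adjusted p = 0.071), with no filter on low counts (-0.51, adjusted p = 0.14) and in one fit with the other groups (-0.88, adjusted p = 0.061). NTR, made under the fabp10a promoter, was at 539, 632 and 832 CPM in hepatocytes, against 107, 195 and 150 CPM in BECs (log2 change 2.56, SE 0.19). GFP, which recombination removes, was at 103, 119 and 131 CPM in hepatocytes, against 53.5, 77.8 and 20.6 CPM in BECs. Its change of 1.77 (SE 0.32) fell to 1.23 without library 3 (adjusted p = 0.054) and to 0.66 with cells at the depth of BECs (adjusted p = 0.26), and GFP and CFP are alike enough in sequence that reads may not tell them apart. Barcodes not called held 105 CPM of mCherry, 497 CPM of NTR and 95.4 CPM of GFP, so hepatocytes were near this level for mCherry and GFP.

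The same contrast at 7 dpa gave 1437 hepatocytes and 51 BECs in 3 libraries of the same lines and sort. The change of the contrast, 3 dpa against 7 dpa, was tested by an interaction term. Of 5514 genes tested, 238 (4.32%) were called, 55 positive (0.997%) and 183 negative (3.32%), and the direction depended strongly on scaling. With totals alone 300 were positive and 26 negative, and the median of all genes moved by 1.12 log2 units. Interactions given below are from the TMM fit, whose scaling factors the CPM leave out, so CPM alone can give another size. Under all 4 scalings 49 were positive (0.889%) and 25 negative (0.453%). Only 13 to 22 BECs a library stood behind the 7 dpa sums, and without library 2 of 7 dpa 424 genes were called.

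Genes with a positive interaction included basp1, cdh17 and ccn2a. The membrane protein gene basp1 was at 248, 226 and 232 CPM in 3 dpa hepatocytes and 562, 652 and 661 CPM in 3 dpa BECs, against 1.2, 1.4 and 3.75 CPM in 7 dpa hepatocytes and 373, 418 and 285 CPM in 7 dpa BECs. Its contrast thus differed by 4.82 log2 units (SE 0.58, edgeR adjusted p = 7.6e-15). The cadherin cdh17 averaged 99.1 CPM in 3 dpa hepatocytes and 247 CPM in 3 dpa BECs, against 1.76 CPM in 7 dpa hepatocytes and 187 CPM in 7 dpa BECs (interaction 4.30, SE 0.75). The matrix signalling protein ccn2a averaged 48.4 CPM in 3 dpa hepatocytes and 56.9 CPM in 3 dpa BECs, against 2.47 CPM in 7 dpa hepatocytes and 137 CPM in 7 dpa BECs (interaction 4.27, SE 0.88). BEC sums held these 3 genes on both days, while hepatocyte sums held them at 3 dpa and almost lacked them at 7 dpa. Hepatocyte levels at 3 dpa were near those of barcodes not called, given below for basp1 and cdh17 and at 39.4 CPM for ccn2a. Barcodes not called were also near hepatocytes for hepatocyte genes, so nearness does not point to a source. Whether the levels of these 3 genes came from the hepatocytes or from free RNA was not tested.

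The list of annexins, S100 proteins, galectins and thymosins had 4 of 16 tested members with a positive interaction under all scalings and none negative. These were s100a10a, s100a10b, icn and the thymosin tmsb4x, beside 0.889% of all genes tested. Both S100A10 genes encode the partner of annexin A2. For s100a10b the means were 424 CPM in 3 dpa hepatocytes and 1043 CPM in 3 dpa BECs, against 3.64 CPM in 7 dpa hepatocytes and 243 CPM in 7 dpa BECs (interaction 3.66, SE 0.60, and 2.73 with adjusted p = 0.061 with thinned sums). For icn they were 159 CPM in 3 dpa hepatocytes and 3670 CPM in 3 dpa BECs, against 11.3 CPM in 7 dpa hepatocytes and 3990 CPM in 7 dpa BECs (interaction 2.80, SE 0.25). The BEC values at 7 dpa varied widely for the S100A10 genes, and without the 7 dpa library labelled replicate 31 neither s100a10b (2.51, adjusted p = 0.20) nor s100a10a (4.34, adjusted p = 0.074) was called.

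Barcodes not called were also higher at 3 dpa for basp1 and cdh17. They held 226 CPM of basp1 at 3 dpa and 6.24 CPM at 7 dpa, and 84.6 CPM of cdh17 at 3 dpa and 1.90 CPM at 7 dpa. With the background of each gene subtracted at its 95th percentile among such barcodes, the interaction of basp1 was 4.64 and that of cdh17 4.03. Without the hepatocytes that met the biliary criterion it was 4.06 for basp1 and 3.57 for cdh17. The subtracted value was rounded down to whole UMIs per barcode and hardly acted on genes at these levels. The 3 dpa log2 change moved from -1.04 to -0.97 for basp1 and from -0.973 to -0.971 for cdh17. The subtraction thus could not decide the part of free RNA, which was not tested.

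Negative interactions under all scalings included those of txn, calr3a, mt-atp6 and mCherry. Thioredoxin, txn, was at 1894, 1867 and 1884 CPM in 3 dpa hepatocytes and 1303, 1381 and 1053 CPM in 3 dpa BECs, against 323, 354 and 371 CPM in 7 dpa hepatocytes and 57.4, 139 and 40.7 CPM in 7 dpa BECs (interaction -2.74, SE 0.46). The calreticulin gene calr3a averaged 1076 CPM in 3 dpa hepatocytes and 728 CPM in 3 dpa BECs, against 416 CPM in 7 dpa hepatocytes and 69.6 CPM in 7 dpa BECs (interaction -3.30, SE 0.49). Both genes were high in both types at 3 dpa, and their mean level was higher in hepatocytes than in BECs on both days. Few UMIs set these 7 dpa BEC levels, in sums of 34844, 21511 and 24599 UMIs. The subunit mt-atp6 had an interaction of -1.82 (SE 0.23), with 3542 CPM in 3 dpa hepatocytes and 1782 CPM in 3 dpa BECs, against 1758 CPM in 7 dpa hepatocytes and 570 CPM in 7 dpa BECs. For mCherry it was -2.28 (SE 0.35), with 110 CPM in 3 dpa hepatocytes and 261 CPM in 3 dpa BECs, against 401 CPM in 7 dpa hepatocytes and 432 CPM in 7 dpa BECs. With the sums of a library thinned to one total neither was called, at -0.50 for mt-atp6 (adjusted p = 0.21) and -0.71 for mCherry (adjusted p = 0.38). With the background subtracted the interaction was -4.43 for txn, -10.41 for calr3a and -3.17 for mt-atp6. That subtraction took the same UMI count of a gene from each cell, so cells with few UMIs lost the larger share. In 7 dpa library 1 the sums fell from 34844 to 20129 UMIs for BECs and from 1661066 to 1257292 UMIs for hepatocytes. These values are thus no measure of a larger contrast.

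**Figure D5:**
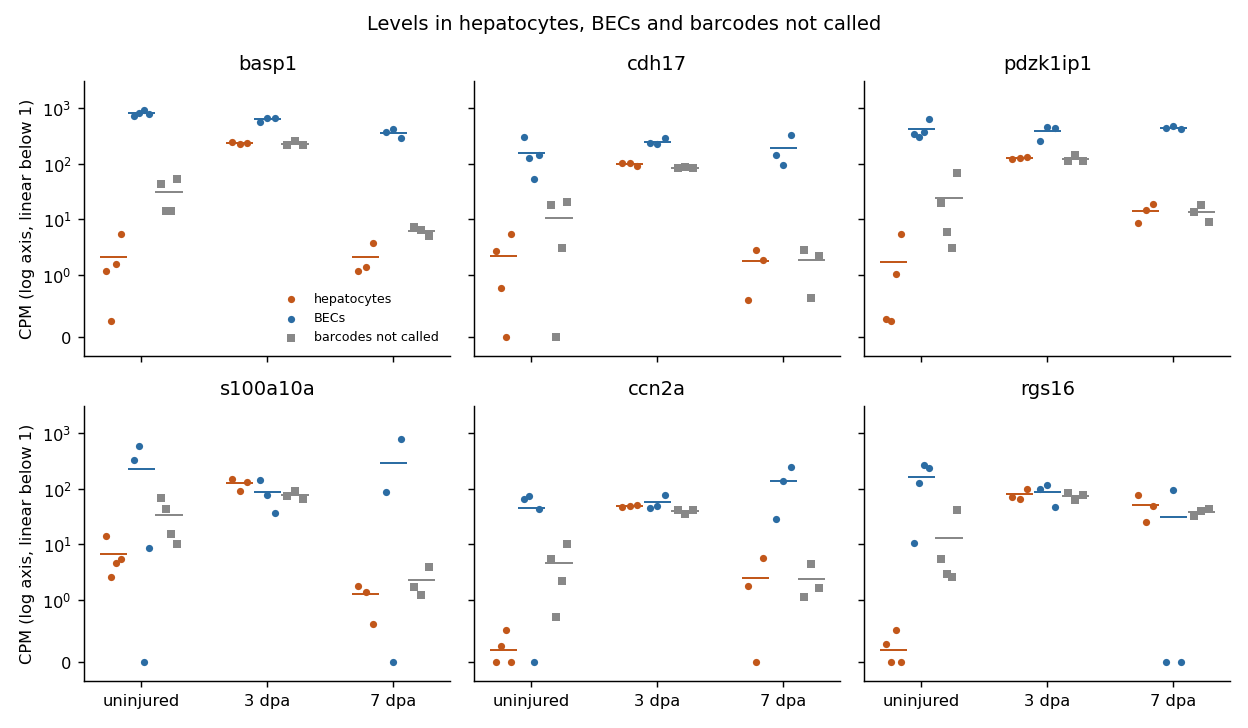
Points are libraries of uninjured TU liver, 3 dpa and 7 dpa and short lines their means, with CPM on a log y axis that is linear below 1, for hepatocytes (orange), BECs (blue) and barcodes not called (grey squares). In each of the 6 genes hepatocytes at 3 dpa lie near the barcodes not called of 3 dpa and far above uninjured hepatocytes, and they lie above 7 dpa hepatocytes in 5 genes but overlap with them for rgs16.

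Uninjured TU liver gave 1816 hepatocytes and 154 BECs in the 4 libraries with at least 10 cells of each type. Its line, sort and treatment all differ from those at 3 dpa, so these cannot be told apart in this comparison. The study made its uninjured atlas from male fish and otherwise used both sexes unless stated, so sex may differ too. Its libraries also differed more among themselves, with a chi-square per degree of freedom of 10.4 to 56.0 between hepatocyte sums, and library 5 had 75 hepatocytes with a median of 786 UMIs. Of 2683 genes tested, 188 (7.01%) had a called interaction, 74 positive (2.76%) and 114 negative (4.25%), and the direction depended strongly on scaling. With totals alone 397 were positive and 22 negative, and the median of all genes moved by 1.21 log2 units. Interactions given below are from the TMM fit, whose scaling factors the CPM leave out, so CPM alone can give another size. Under all 4 scalings 71 were positive (2.65%) and 15 negative (0.559%). Without library 5 of uninjured liver 467 were called, and without 1 of the 3 dpa libraries 61 to 89.

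Genes with a positive interaction included basp1, pdzk1ip1 and rgs16. The gene basp1 averaged 235 CPM in 3 dpa hepatocytes and 625 CPM in 3 dpa BECs, against 2.1 CPM in uninjured hepatocytes and 797 CPM in uninjured BECs, an interaction of 6.71 (SE 0.65, edgeR adjusted p = 3.0e-07). The membrane protein gene pdzk1ip1 was at 122, 127 and 133 CPM in 3 dpa hepatocytes and 250, 447 and 439 CPM in 3 dpa BECs, against 0.297, 0.265, 1.04 and 5.37 CPM in uninjured hepatocytes and 344, 296, 372 and 619 CPM in uninjured BECs (interaction 6.18, SE 0.70). The G protein regulator rgs16 averaged 79.1 CPM in 3 dpa hepatocytes and 87.1 CPM in 3 dpa BECs, against 0.204 CPM in uninjured hepatocytes and 159 CPM in uninjured BECs (interaction 7.14, SE 1.00, and 6.77 with adjusted p = 0.088 with thinned sums). Hepatocytes of the groups did not overlap for any of these genes, which were chosen for large interactions in these same sums. The share of all genes without such overlap was not computed. Barcodes not called at 3 dpa held 226 CPM of basp1, 122 CPM of pdzk1ip1 and 74.4 CPM of rgs16, near the 3 dpa hepatocytes. The part of free RNA was not tested. The factor elf3 (4.02, SE 0.66, and 4.98 with adjusted p = 0.10 with thinned sums) and 3 of 26 tested junction genes, cldn7b, cldn15la and cdh17, were also positive under all scalings. This was so for 2.65% of all genes tested.

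Of 22 tested plasma carriers and inhibitors, 4 had a negative interaction under all scalings and none a positive one. Among all genes tested these were 0.559% and 2.65%. Ceruloplasmin, cp, which carries copper, was at 158, 156 and 168 CPM in 3 dpa hepatocytes and 80.3, 77.8 and 114 CPM in 3 dpa BECs, against 1289, 2077, 1836 and 1403 CPM in uninjured hepatocytes and 151, 148, 478 and 122 CPM in uninjured BECs (interaction -3.52, SE 0.55, edgeR adjusted p = 1.4e-04). The inhibitor precursor ambp averaged 1026 CPM in 3 dpa hepatocytes and 282 CPM in 3 dpa BECs, against 2929 CPM in uninjured hepatocytes and 278 CPM in uninjured BECs (interaction -2.93, SE 0.50, and -2.12 with adjusted p = 0.16 with no filter on low counts). For ttr, the gene lower in hepatocytes at 3 dpa, the means were 78.4 CPM in 3 dpa hepatocytes and 178 CPM in 3 dpa BECs, against 134 CPM in uninjured hepatocytes and 44.2 CPM in uninjured BECs (interaction -4.46, SE 0.69). The contrast of ttr was also lower at 3 dpa than at 7 dpa (-4.00, SE 0.79), where 2 UMIs in BECs set its level.

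The fibrinogen chain fgg averaged 2694 CPM in 3 dpa hepatocytes and 820 CPM in 3 dpa BECs, against 7001 CPM in uninjured hepatocytes and 726 CPM in uninjured BECs (interaction -3.30, SE 0.59), and lost its call without library 3 of 3 dpa (-2.75, adjusted p = 0.059). Hepatocytes at 3 dpa thus held cp, ambp and fgg above BECs but at a lower level than uninjured hepatocytes.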

How the data were processed

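Adult zebrafish livers were dissociated, sorted and run on Drop-Seq by the authors, who deposited tables of UMI counts, 5000 barcodes a library and 26482 genes in the tables joined here. Per the labels, reads were checked with FastQC 0.11.2 and aligned with STAR 2.5.3 to GRCz11. Library totals at 3 dpa were 6893275, 5789678 and 6663929 UMIs.

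Raw counts were summed per library and type wherever a library had at least 10 cells of each, and tested with edgeR 4.0.16 (quasi-likelihood, TMM, library as a block, default filter on low counts) in R 4.3.3, with Benjamini-Hochberg adjustment over all genes and a threshold of 0.05. The types of a library share that library, which is the pairing. Interactions with 7 dpa and uninjured TU liver used the same model. The 4 scalings were TMM, totals, TMM over genes with at least 10 UMIs in every sum, and DESeq2 1.42.0 with its Wald test. CPM are UMIs per 1000000 of a sum. Scripts were tested on simulated data. At 3 dpa edgeR recovered 18 of 83 genes simulated with a change of 1 log2 unit and 42 of 83 with 2. For the 7 dpa interaction it recovered 4 of 83 and 17 of 94, and for uninjured liver 2 of 67 and 26 of 75. Calls among unchanged genes were 4 of 7125, 7 of 4495 and 0 of 1632. A gene that was not called may thus still differ. At 1 and 2 log2 units the median error of the edgeR fit was 0.264 and 0.218 log2 units at 3 dpa. It was -0.456 and -0.414 for the 7 dpa interaction, and 0.012 and 0.107 for uninjured liver. With DESeq2 the median errors were 0.162 and 0.108, -0.075 and -0.066, and 0.0083 and 0.0995 in the same order. The part of such errors in the split of calls by direction was not tested.

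Cell rule and gene lists were chosen with earlier results of these data known. Genes named are list members with large changes or high levels, the 15 largest rises and falls whose libraries do not overlap, and the 10 largest interactions each way, at 50 CPM or more, of which 1 is not reported here. Hepatocytes at 10% or more, cells at BEC depth and leaving out single 7 dpa or uninjured libraries were alternatives chosen after seeing the data.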

Additional observations from a re-analysis of the deposited data

Results flagged for a closer look

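The contrast of hepatocytes with BECs differed between 3 dpa and the other groups for the genes below, by the interaction term of the edgeR fit (log2 units, 3 dpa first). Values from groups with 0 UMIs depend on the prior count. They give at most the direction, and not even that where the other type was also low.

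Against 7 dpa the contrast was shifted towards hepatocytes at 3 dpa for si:ch73-359m17.9 (9.22), s100a10a (7.26), si:rp71-17i16.6 (7.24), cxcl8a (6.67), zgc:64022 (6.47), zgc:113142 (6.07), eps8l3b (6.02), slc43a2b (5.71), basp1 (4.82) and calml4a (4.78). All but cxcl8a and eps8l3b were called under all 4 scalings. It was shifted towards BECs for mif (-10.09), cxadr (-9.77), tmem256 (-9.42), pls3 (-9.42), MYO9B (-9.29), denr (-9.20), hnrnpc (-9.17), zgc:110339 (-9.16) and decr1 (-9.00). Each of these 9 genes had 0 UMIs in the 51 BECs of 7 dpa, and only mif was called under all 4 scalings.

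Against uninjured TU liver the contrast was shifted towards hepatocytes at 3 dpa for mid1ip1a (7.43), fabp1b.1 (7.26), rgs16 (7.14), cldn15la (6.77), basp1 (6.71), cldn7b (6.60), si:dkeyp-86f7.4 (6.26), pdzk1ip1 (6.18), ccn2a (6.18) and zgc:92313 (5.89). All but fabp1b.1 were called under all 4 scalings. It was shifted towards BECs for si:ch211-156j16.1 (-10.72), hao1 (-9.00), slc22a2 (-7.48), chia.6 (-6.80), hsd17b3 (-6.54), serpinh1b (-5.75), hmox1a (-4.92), BX001030.2 (-4.85), pnp5a (-4.75) and crp3 (-4.74), of which chia.6, serpinh1b, hmox1a and crp3 were called under all 4 scalings.

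Single libraries of uninjured TU liver stood apart from the other 3 by Dixon's criterion in 11 of 40 groups checked. The usual rate of about 1 in 20 does not apply here, since the genes were chosen from these same libraries. A group with 1 UMI in all is also always flagged. This was so for zgc:92313 in hepatocytes and for chia.6, serpinh1b and slc22a2 in BECs. In hepatocytes the flagged genes were fabp1b.1 (16.1 CPM), pdzk1ip1 (5.37 CPM), serpinh1b (25 CPM), si:dkeyp-86f7.4 (5.37 CPM) and zgc:92313 (0.297 CPM). In BECs they were chia.6 (8.72 CPM), fabp1b.1 (246.8 CPM), hmox1a (165.7 CPM), serpinh1b (53.2 CPM), slc22a2 (10.8 CPM) and zgc:92313 (106.3 CPM).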

How the results depend on the processing

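For hepatocytes against BECs at 3 dpa, 2169 genes were called, and 1330 with DESeq2, 1412 with BECs under 1% of hepatocyte genes, 610 of 1156 tested with both sums of a library thinned to one total, 714 of 2011 with cells at the depth of BECs, and 1113 of 2952 in one fit with the other groups. Leaving out one library gave 909 to 1716, lowest without library 3. Without the replicate block, which pairs the types of a library, 2375 genes were called, 281 for the interaction with 7 dpa and 166 for that with uninjured liver, and the calls of mid1ip1a, chia.6 and BX001030.2 in the last of these were the only ones of named genes lost without it. The interaction with 7 dpa had 238 calls, 453 with at least 10 UMIs in every sum of one type, 517 without hepatocytes that met the biliary criterion and 121 with thinned sums. It had 199 to 424 calls with one library left out, highest without library 2 of 7 dpa. The interaction with uninjured TU liver had 188 calls, 419 with totals alone, 112 with no filter, 97 with at least 10 UMIs in every sum of one type, 122 without hepatocytes that met the biliary criterion, 82 with BECs under 1% and 42 with thinned sums. It had 61 to 467 calls with one library left out, highest without library 5 of uninjured liver. The interaction with 7 dpa was not run with BECs under 1%, where libraries had under 10 BECs. The sign turned for krt8 with the background subtracted (0.0040) and with no filter (0.22). It turned for krt18a.1 with totals (-0.28), TMM over deep genes (-0.22), cells at BEC depth (-0.35), hepatocytes at 10% or more (-0.23), hepatocytes without the biliary criterion (-0.56) and thinned sums (-0.37). The interaction of fabp1b.1 with uninjured liver was -1.11 without the 5% of cells with the most UMIs, and that of cxcl8a with 7 dpa was -2.28 without library 2 of 7 dpa and up to 7.73 without another library. The cause of these moves was not tested, beyond the fewer genes tested where that number is given. The 140 BECs limit the comparison, since 1 UMI is 5.16 to 9.73 CPM in a BEC sum.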
